A study of Mus musculus with 45 samples.

Results

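The response of mouse macrophages to IL-4 and IFN-γ given together for 2 h was compared, gene by gene, with the responses to each cytokine alone. The members are 12 of the 21 libraries of the deposited table (the series holds 45), chosen by their labels: 3 with both cytokines for 2 h, 3 with IFN-γ for 2 h, 3 with IL-4 for 2 h and 3 untreated. All were poly(A) RNA of bone marrow-derived macrophages of C57BL/6 mice, grown with L929-conditioned medium, a source of the growth factor CSF1, and taken on day 7 of differentiation. IFN-γ was used at 100 ng/ml and IL-4 at 10 ng/ml; the labels give neither the age nor the sex of the mice, and no collection time for untreated cells. The measure was the interaction, on the log2(CPM + 1) scale, where CPM is a gene's read count scaled to the total of its library. It is the level with both cytokines, minus that with IFN-γ, minus that with IL-4, plus that of untreated cells, formed within each replicate number. A value of 0 means that the log2 changes under the single cytokines add up, so that their fold changes multiply. A negative interaction means a level under that product, and a positive one a level above it. Of 24421 genes in the table, 11380 had at least 1 CPM in at least 3 of the 21 libraries and were tested.

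IFN-γ binds a receptor that signals through JAK1 and JAK2 and induces genes for guanylate-binding proteins, IRF1 and antigen presentation. IL-4 signals through IL-4Rα, JAK1 and JAK3 to STAT6, which binds a palindrome and drives genes of alternative activation such as Arg1 and Retnla. Both pathways induce SOCS proteins, which bind receptors or JAKs and limit further signalling.

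The libraries held 28920801 to 80028327 reads. Untreated replicates 2 and 3 stood apart: Rn45s, the ribosomal RNA precursor, took 43.2% and 15.7% of their reads, against 0.151% in untreated replicate 1 and at most 1.20% in the treated 2 h libraries. CPM values were therefore rescaled by median-ratio factors before any test, and all CPM given here are rescaled. Of 9 listed macrophage marker symbols, 8 were in the table, and the absent Emr1 is an earlier name of Adgre1. Their summed level was 17409 to 31948 CPM in combination libraries and 16501 to 36967 CPM in IFN-γ libraries. In IL-4 libraries it was 17699 to 32686 CPM, and in untreated ones 20715 to 36515 CPM. Most of it was Lyz2, which averaged 17708.5 CPM with both cytokines and 20198 CPM in untreated cells. The listed markers of T, B and natural killer cells mostly stayed under 1 CPM (4 of 6, 4 of 5 and 4 of 4). The exceptions were Cd4 (2.33 to 26.1 CPM), Cd79b (3.22 to 8.41 CPM) and Lck. Lck averaged 4.75 CPM with both cytokines, 5.92 CPM with IFN-γ, 0.229 CPM with IL-4 and 0.358 CPM in untreated cells. Pf4, listed for megakaryocytes, had 33.6 to 93.7 CPM, and fibroblast markers summed to 6.09 to 15.8 CPM. Neutrophil markers summed to 48.3 to 155 CPM in combination, 76.1 to 187 CPM in IFN-γ, 51.2 to 114 CPM in IL-4 and 65.4 to 166 CPM in untreated libraries. The interaction of the 8 macrophage markers ran from -0.15 to 0.16. In bulk RNA a change in cell makeup and a change in RNA per cell cannot be told apart.

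The interaction differed from 0 in 577 of 11380 genes (5.07%): 233 were called higher (2.05%) and 344 lower (3.02%) by limma with the replicate number as a block, at an adjusted p under 0.05. The median interaction was 0.69 among genes called higher and -0.71 among genes called lower, against -0.02 over all genes. In size, 54 of the first reached at least 1 log2 unit and 90 of the second at most -1. All 577 had the same sign in 3 of 3 replicate numbers, as did 40.8% of all genes tested. The calls rest on the pairing: without the block 10 genes were called higher and 22 lower. On CPM as deposited, where the median interaction of all genes was -0.39, 34 were called higher and 206 lower. Of the 577 genes, 562 had the same sign there.

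**Figure D1:**
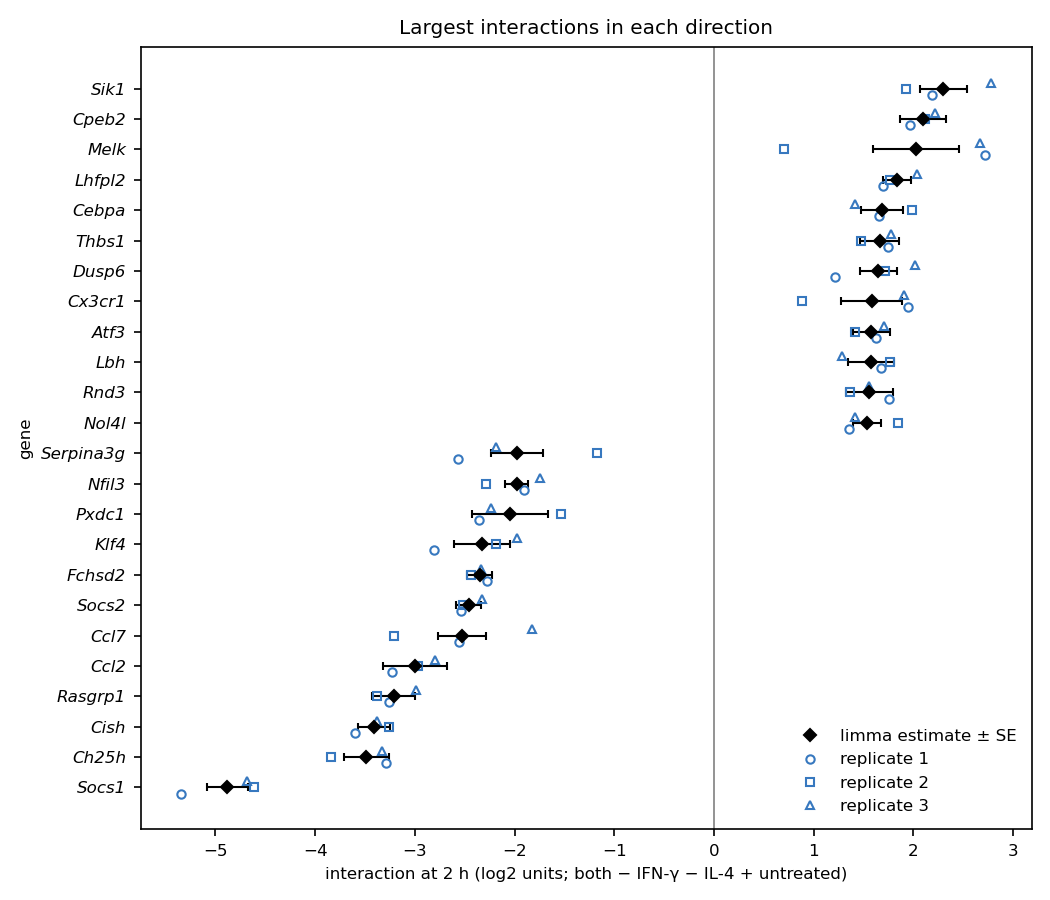
The 12 largest interactions in each direction among the genes that met the naming rule, in log2 units on the horizontal axis. Filled diamonds with bars are limma estimates ± SE, and open symbols are the 3 replicate numbers. That rule takes only genes with the same sign in 3 of 3 replicate numbers, so every open symbol lies on the side of its estimate. The range runs from 2.301 for Sik1 to -4.88 for Socs1.

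Among the 344 genes called lower, 197 (57.3%) were called higher under each cytokine alone, a pattern of 6.28% of all genes. Among the 233 called higher, 151 (64.8%) were called lower under each cytokine alone, a pattern of 7.93% of all genes. These calls share libraries with the interaction (against untreated cells, IFN-γ raised 22.5% and lowered 20.5% of all genes, and IL-4 raised 16.1% and lowered 14.2%), so the shares are a description. The combination was higher than IFN-γ alone in 7.26% of all genes and lower in 6.71%, and higher than IL-4 alone in 18.5% and lower in 20.1%. In 136 of the 344 genes the 3 untreated libraries lay below the other 9 (4.24% of all genes), and in 108 of the 233 they lay above the other 9 (4.39% of all genes). The 2 main shapes among called genes were a gene that each cytokine raised and a gene that each lowered. With both cytokines, raised genes had less than the product of the folds, and lowered genes less than the product of the decreases. A low untreated level by itself lowers the interaction and raises both changes under single cytokines, and a high level does the reverse. Choosing genes by their interaction therefore favours both shapes and these positions of the untreated libraries. Untreated replicates 2 and 3 were also those rich in Rn45s. How much of the shapes comes from this was not tested.

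Feedback inhibitors of cytokine signalling gave 3 of the 12 lowest interactions named by the rule, Socs1, Cish and Socs2. Socs1, an inhibitor of JAK kinases, had the lowest value of all genes tested. The promoters of Socs1 and Cish, with those of Rasgrp1 and Irf1 described below, are shown because each holds a palindrome or repeat of the searched kinds. The windows run from 250 bases before to 50 after the annotated start (RefSeq, GRCm38.p6), 5′ to 3′ on the gene's strand, with matches to TTCNNNGAA (Cish, Rasgrp1, Irf1), or to GAAA and GAAA 2 bases apart (Socs1), in capitals:
Socs1, chr16:10785487-10785786, minus strand: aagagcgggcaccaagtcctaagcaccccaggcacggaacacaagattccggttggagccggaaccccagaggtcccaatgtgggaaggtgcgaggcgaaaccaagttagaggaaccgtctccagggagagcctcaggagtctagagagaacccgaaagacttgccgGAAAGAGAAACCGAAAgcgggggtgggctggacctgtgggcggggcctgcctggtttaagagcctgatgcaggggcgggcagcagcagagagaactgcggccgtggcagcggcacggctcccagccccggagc
Cish, chr9:107296409-107296708, plus strand: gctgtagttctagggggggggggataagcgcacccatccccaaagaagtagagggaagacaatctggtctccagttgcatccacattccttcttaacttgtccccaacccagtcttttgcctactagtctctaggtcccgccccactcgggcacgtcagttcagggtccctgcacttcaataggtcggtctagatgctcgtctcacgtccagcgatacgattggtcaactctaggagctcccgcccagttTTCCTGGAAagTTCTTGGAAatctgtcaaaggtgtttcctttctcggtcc
Rasgrp1, chr2:117342828-117343127, minus strand: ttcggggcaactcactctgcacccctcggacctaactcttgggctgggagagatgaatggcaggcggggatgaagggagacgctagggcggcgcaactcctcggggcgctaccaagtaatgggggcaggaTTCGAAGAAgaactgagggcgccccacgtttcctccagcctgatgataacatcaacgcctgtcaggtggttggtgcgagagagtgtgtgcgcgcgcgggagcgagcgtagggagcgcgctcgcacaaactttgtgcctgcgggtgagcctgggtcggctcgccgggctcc
Irf1, chr11:53769764-53770063, plus strand: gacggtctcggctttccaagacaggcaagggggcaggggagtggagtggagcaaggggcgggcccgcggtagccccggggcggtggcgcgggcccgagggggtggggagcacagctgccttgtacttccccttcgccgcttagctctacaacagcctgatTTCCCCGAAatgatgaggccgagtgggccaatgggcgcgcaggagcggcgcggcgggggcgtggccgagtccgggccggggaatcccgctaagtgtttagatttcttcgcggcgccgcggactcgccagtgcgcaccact
In Socs1 a pair of matches to the GAAA repeat, starting at -83 and -77 from the start site, overlap by 4 bases. Cish held TTCNNNGAA at 1 and at 12, just past its start, Rasgrp1 at -120 and Irf1 at -90. Another Irf1 window held no match of any searched kind, nor did those of Ch25h, Fchsd2, Klf4, Pxdc1 and Nfil3, all called lower. Serpina3g, also called lower, held TTCNNNGAA, and so did Socs3 and Icam1, which were not called.

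Socs1 (chromosome 16, 10782240 to 10785536, minus strand; GENCODE vM21, GRCm38) had 138, 156 and 147 CPM with both cytokines, 107, 92.2 and 86.5 CPM with IFN-γ, 119.7, 74.9 and 64.6 CPM with IL-4 and 1.30, 0.836 and 0.509 CPM in untreated cells. Each cytokine alone raised it (limma adjusted p = 7.3e-10 for IFN-γ and 1.9e-09 for IL-4), and the 3 combination libraries lay above all others. The interaction was -4.88 ± 0.20 (SE; limma adjusted p = 1.2e-06). Adding the single increments would have given 181 CPM, against a mean of 147 CPM with both, and multiplying the single folds of CPM + 1 would have given 4358 CPM. With untreated levels near or under 1 CPM, both that product and the size of the interaction depend on the pseudocount: the interaction was -3.31 with a pseudocount of 5 and -6.02 by edgeR. The combination exceeded IFN-γ alone (log2 difference 0.63, adjusted p = 0.013) and IL-4 alone (0.81, adjusted p = 0.00099).

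Cish, the cytokine-inducible SH2 protein, had 129, 71.5 and 112 CPM with both cytokines, 42.3, 19.4 and 33.9 CPM with IFN-γ, 65.9, 47.3 and 63.0 CPM with IL-4 and 0.839, 0.418 and 0.897 CPM in untreated cells. The combination was the highest group in each replicate number, and its interaction was -3.41 ± 0.16 (limma adjusted p = 1.9e-06). On the linear scale Cish exceeded the sum of the single increments by 21.5, 5.28 and 16.1 CPM. It was 1 of 9 genes called lower that did so in 3 of 3 replicate numbers (17.9% of all genes did), while 315 of the 344 fell short of the sum in 3 of 3 (25% of all genes).

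Socs2 behaved otherwise, with IL-4 libraries on top: 10.3, 6.11 and 7.997 CPM with both cytokines, 2.23, 1.38 and 1.38 CPM with IFN-γ, 32.3, 21.2 and 27.0 CPM with IL-4 and 0.649, 0.298 and 0.482 CPM in untreated cells. Adding IFN-γ to IL-4 lowered it (log2 difference -1.62, adjusted p = 1.7e-07), although IFN-γ alone raised it (0.84, adjusted p = 1.6e-05). Its interaction was -2.46 ± 0.13 (adjusted p = 3.3e-06). Socs3, induced by IFN-γ, was not called: it averaged 278 CPM with both cytokines, 363 CPM with IFN-γ, 11.1 CPM with IL-4 and 12.8 CPM in untreated cells (interaction -0.18 ± 0.21, limma adjusted p = 0.72). Of 15 SOCS and phosphatase genes 5 were called lower (33.3%) and 0 higher, with a median of -0.03, so that the list as a whole sat at the median of all genes. The other called members were Socs5 (-0.67) and Ptpn2, a phosphatase acting on JAK1 and STAT proteins (-0.37).

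**Figure D2:**
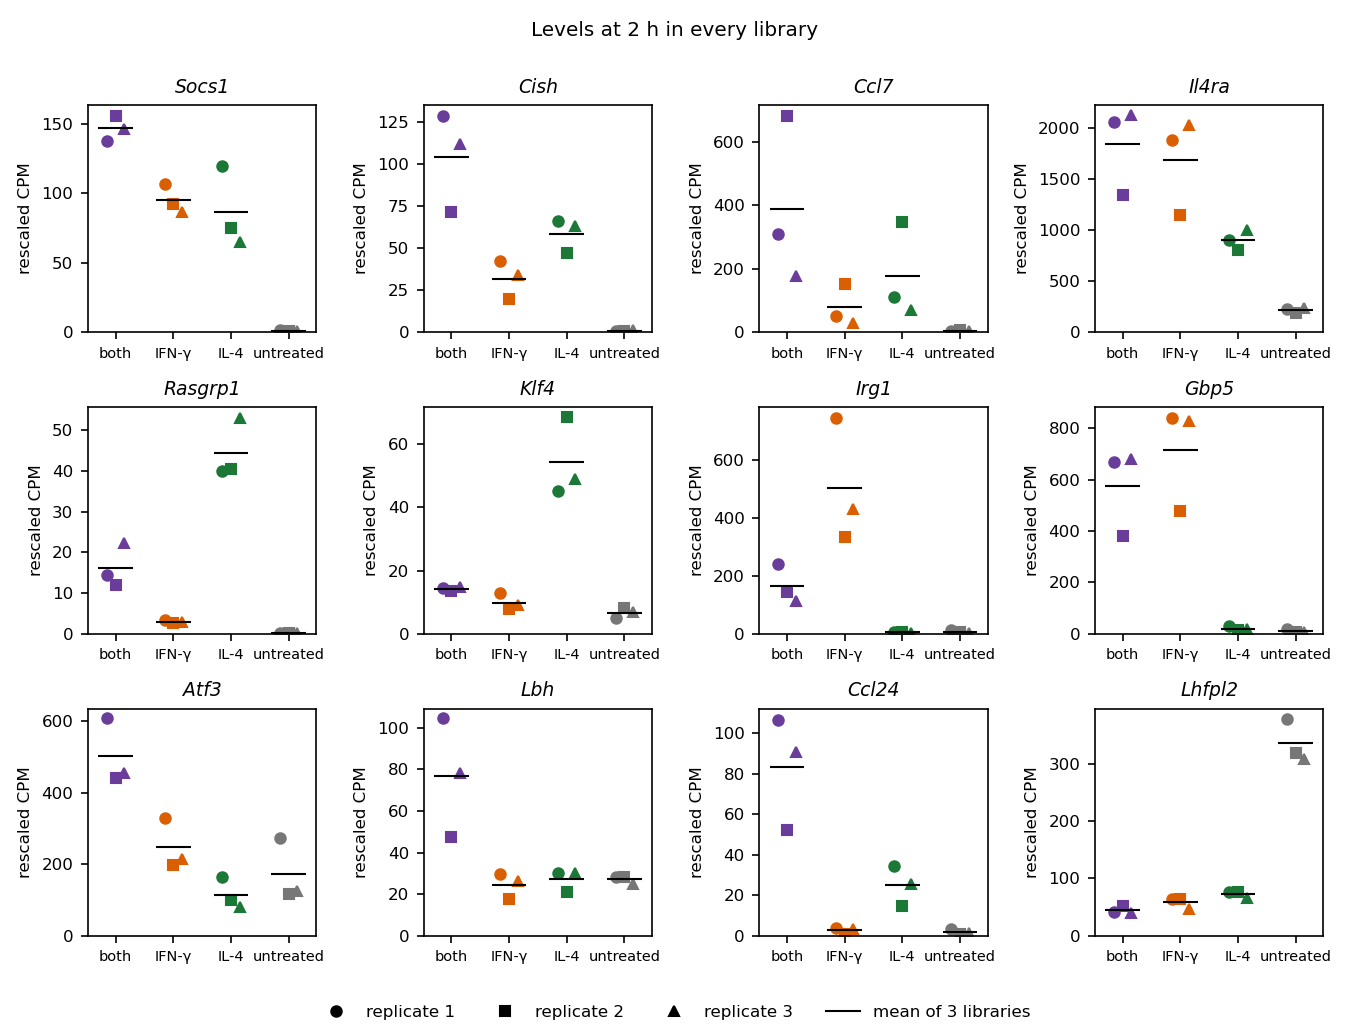
Rescaled CPM of 12 genes in each of the 12 libraries, with 1 panel per gene and a linear vertical axis. Symbols mark replicate numbers and bars the mean of 3 libraries. Socs1 and Il4ra are high with either cytokine, Rasgrp1 and Klf4 are highest with IL-4 alone, Irg1 with IFN-γ alone, Atf3, Lbh and Ccl24 with both, and Lhfpl2 in untreated cells.

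Among receptors and signal transducers, the gene for the IL-4 receptor chain was raised by either cytokine. Il4ra (chromosome 7, 125552120 to 125579474, plus strand) had 2059, 1338 and 2123 CPM with both cytokines, 1880.4, 1142 and 2030.0 CPM with IFN-γ, 905, 800.1 and 999.6 CPM with IL-4 and 228, 188 and 231 CPM in untreated cells. IL-4 raised it 2.06 log2 units by itself, but combination and IFN-γ libraries overlapped (difference 0.14, limma adjusted p = 0.52), and the interaction was -1.92 ± 0.15 (adjusted p = 5.5e-05). Jak2, a kinase of the IFN-γ receptor, averaged 116 ± 12.1 CPM with both cytokines, 84.0 ± 9.89 CPM with IFN-γ, 106 ± 9.96 CPM with IL-4 and 45.8 ± 5.90 CPM in untreated cells (SD, n = 3 each; interaction -0.74 ± 0.09, limma adjusted p = 0.0010). These were the 2 called of 15 members, both lower, with a list median of -0.15. Stat6 was not called (183, 193, 201 and 242 CPM on average with both cytokines, IFN-γ, IL-4 and in untreated cells; 0.19 ± 0.07, limma adjusted p = 0.18).

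The monocyte chemoattractants Ccl2, Ccl7 and Ccl12, ligands of CCR2, were raised by each cytokine alone. Ccl7 (chromosome 11, 82045712 to 82047525, plus strand) had 309, 681 and 176 CPM with both cytokines, 51.0, 152 and 28.8 CPM with IFN-γ, 111, 348 and 68.4 CPM with IL-4 and 2.19, 7.46 and 2.302 CPM in untreated cells. Replicate 2 was highest in every group, so the groups overlapped across numbers, yet within each number the combination was on top. The interaction was -2.53 ± 0.24 (limma adjusted p = 0.00019), and on the linear scale the combination was above the sum of the single increments by 149.8, 189 and 80.9 CPM.

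Ccl2 had 159, 342 and 106 CPM with both cytokines, 163, 228 and 119.6 CPM with IFN-γ, 67.0, 238 and 42.4 CPM with IL-4 and 6.47, 19.4 and 6.04 CPM in untreated cells. Here the combination did not pass the test against IFN-γ alone (difference 0.12, limma adjusted p = 0.84), and it was short of the sum by 50.2 to 105 CPM. The interaction was -2.999 ± 0.32 (adjusted p = 0.00038), and that of Ccl12 was -1.68 ± 0.25 (adjusted p = 0.0028). Cxcl11, a ligand of CXCR3, was the fourth called lower (-0.88), whereas the other CXCR3 ligands Cxcl9 (-0.56 ± 0.39, limma adjusted p = 0.52) and Cxcl10 (0.46 ± 0.23, adjusted p = 0.33) were not called. Without untreated replicates 2 and 3, an alternative added after seeing the data, Cxcl10 was called higher (0.93, adjusted p = 0.012). Ccl24 was the 1 member of 15 called higher, and the list median was 0.02.

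Costimulatory genes formed a further group with lower interactions, 3 of 10 tested members (30%; 0 higher), with a median of -0.42. Cd274, which encodes PD-L1, had 891, 611 and 773 CPM with both cytokines, 833, 448 and 630.0 CPM with IFN-γ, 169, 183 and 125 CPM with IL-4 and 58.7, 26.6 and 30.8 CPM in untreated cells. The level with both lay near the sum of the single increments (757 CPM expected, 758 CPM on average observed), while the interaction was -1.80 ± 0.28 (limma adjusted p = 0.0032). Cd40, the receptor for T cell help, was alike, with 162 CPM on average against a sum of 164 CPM (-1.46 ± 0.21, adjusted p = 0.0022), and Cd86 was the third (-0.79). Pdcd1lg2, for the other PD-1 ligand PD-L2, averaged 46.7 ± 11.1 CPM with both cytokines, 0.836 ± 0.300 CPM with IFN-γ, 25.1 ± 5.01 CPM with IL-4 and 0.239 ± 0.0624 CPM in untreated cells. Its interaction of 0.30 ± 0.19 was not called (limma adjusted p = 0.46), and its sign depends on the model, since edgeR on the recovered reads gave -1.12 (adjusted p = 0.037).

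**Figure D3:**
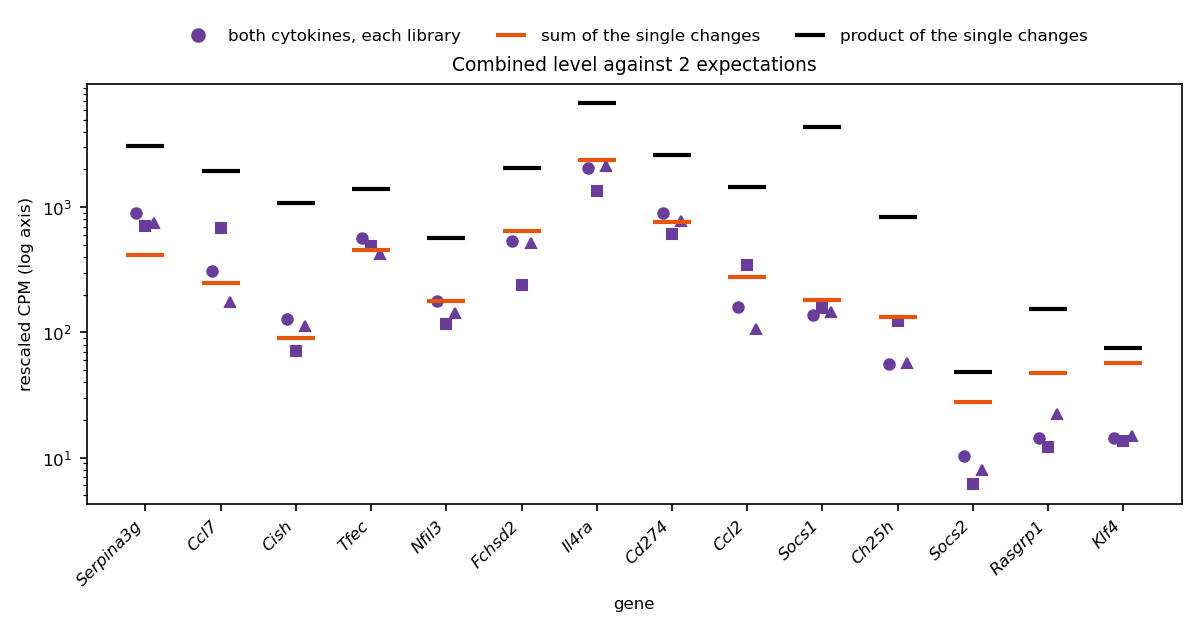
Level with both cytokines of 14 genes called lower (purple symbols, circle, square and triangle for replicates 1, 2 and 3), beside the mean level that adding the single increments (orange) or multiplying the single folds of CPM + 1 (black) would give, in rescaled CPM on a log axis. All libraries lie under the product line. Serpina3g lies above the sum line in every library. Socs1, Il4ra, Fchsd2, Ch25h, Socs2, Rasgrp1 and Klf4 are among the genes that lie below it in every library.

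Of 29 tested genes listed for alternative activation, 13 were called lower (44.8%) and 4 higher (13.8%), with a median of -0.62. The list was drawn up with earlier results of these data known, so the share is a description. Lower calls were 14 on CPM as deposited, 11 by edgeR, 13 by DESeq2 and 7 without the replicate block. Il1rn, a member called lower, averaged 69.3 CPM with IFN-γ, 11.8 CPM with IL-4 and 12.3 CPM in untreated cells. Several other members had their highest level with IL-4 alone. So did 96 of the 344 genes called lower, in which the 3 IL-4 libraries lay above the other 9 (3.54% of all genes). Rasgrp1, a Ras guanine nucleotide exchange factor, had 14.4, 12.05 and 22.3 CPM with both cytokines, 3.37, 2.68 and 2.84 CPM with IFN-γ, 40.03, 40.4 and 53.0 CPM with IL-4 and 0.216, 0.119 and 0.120 CPM in untreated cells. IFN-γ thus raised Rasgrp1 by itself (1.78, limma adjusted p = 2.9e-06) and lowered it in the presence of IL-4 (-1.43, adjusted p = 2.2e-05). Its interaction was -3.21 ± 0.21 (adjusted p = 1.8e-05).

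Klf4, a zinc finger factor that cooperates with STAT6 in macrophages, had 14.4, 13.6 and 14.9 CPM with both cytokines, 12.9, 7.86 and 9.002 CPM with IFN-γ, 45.2, 68.6 and 49.0 CPM with IL-4 and 4.92, 8.24 and 7.01 CPM in untreated cells. The IL-4 libraries stood above the rest, and the interaction was -2.33 ± 0.28 (limma adjusted p = 0.00098). Slc7a2, a cationic amino acid transporter that brings in arginine, averaged 21.8 ± 8.04 CPM with both cytokines, 4.38 ± 2.04 CPM with IFN-γ, 42.1 ± 13.3 CPM with IL-4 and 3.59 ± 1.93 CPM in untreated cells (-1.17 ± 0.12, limma adjusted p = 0.00037). Tmem26 (-1.95 ± 0.22; edgeR -1.98, adjusted p = 0.12) and Pxdc1 (-2.04 ± 0.38), a gene outside the list, were likewise highest with IL-4 alone.

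The textbook markers Arg1 and Retnla were still low at 2 h. Retnla had 7 reads over the 3 combination libraries, 0 over the IFN-γ libraries, 199 over the IL-4 libraries and 0 over the untreated ones, which on the log2(CPM + 1) scale gave -1.24 ± 0.12 (limma adjusted p = 0.00019). With the reads themselves edgeR did not call Retnla (-4.80, adjusted p = 1). Arg1 averaged 1.36 CPM with both cytokines, 0.0289 CPM with IFN-γ, 9.72 CPM with IL-4 and 0.255 CPM in untreated cells, and IFN-γ libraries held 4 reads of it in all. Its call of -1.79 ± 0.32 (limma adjusted p = 0.0076) did not hold in count models: edgeR gave 0.28 (adjusted p = 0.88) and DESeq2 0.36 (adjusted p = 0.92).

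Members of the same list that both cytokines raised were Nfil3, a basic leucine zipper factor (146, 55.7, 133 and 12.3 CPM on average with both cytokines, IFN-γ, IL-4 and in untreated cells; -1.98 ± 0.12, limma adjusted p = 7.6e-06), and Tfec, a MiT family factor (494, 214, 280.3 and 42.0 CPM in the same order; -1.52 ± 0.12, limma adjusted p = 4.6e-05). Tfec exceeded the sum of the single increments in 3 of 3 replicate numbers. The 4 members called higher were Ccl24, Fn1, Irf4 and Pparg (0.47). Mrc1, the mannose receptor and the uncalled member with the highest mean CPM, averaged 2867 CPM with both cytokines, 1464 CPM with IFN-γ, 2633 CPM with IL-4 and 1124 CPM in untreated cells (-0.27 ± 0.14, limma adjusted p = 0.38).

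Interferon regulatory factors moved both ways, 1 of 8 higher and 1 lower. Irf1, a transcription factor induced by IFN-γ, had 2115, 1417 and 1981 CPM with both cytokines, 2324, 1313 and 1931 CPM with IFN-γ, 198, 134 and 163 CPM with IL-4 and 121, 76.9 and 81.0 CPM in untreated cells. Combination and IFN-γ libraries overlapped although IL-4 alone raised the gene by 0.83 log2 units, and the interaction was -0.83 ± 0.13 (limma adjusted p = 0.0040). Irf4, a factor of alternative activation induced by IL-4, had 57.3, 41.8 and 56.3 CPM with both cytokines, 3.50, 2.05 and 2.94 CPM with IFN-γ, 47.1, 49.4 and 54.7 CPM with IL-4 and 5.52, 4.00 and 5.35 CPM in untreated cells. IFN-γ lowered Irf4 by itself (-0.65) but not in the presence of IL-4 (0.03, limma adjusted p = 0.87), and the interaction was 0.67 ± 0.14 (adjusted p = 0.021). That call was lost on CPM as deposited (0.34, adjusted p = 0.50) and without untreated replicates 2 and 3 (0.71, adjusted p = 0.090). Over fits that each leave out 1 library the estimate was 0.53 to 0.80 and the adjusted p 0.0061 to 0.068.

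Genes induced mainly by IFN-γ came next. The 18 genes for guanylate-binding proteins and interferon-inducible GTPases, which attack vacuoles of intracellular pathogens, all had estimates below 0 (-1.38 to -0.12, median -0.75), and 3 were called lower (16.7%). The count varied with the fit, with 10 called lower on CPM as deposited (list median -0.69 relative to that of all genes), 4 by edgeR, 5 by DESeq2 and 0 by limma without the replicate block. Gbp5 had 669, 379 and 679.7 CPM with both cytokines, 841, 479 and 828 CPM with IFN-γ, 29.6, 13.3 and 19.1 CPM with IL-4 and 17.3, 6.15 and 7.31 CPM in untreated cells. In each replicate number the combination was below IFN-γ, a difference that did not pass the test (-0.32, limma adjusted p = 0.31), and IL-4 alone was above untreated cells (1.01, adjusted p = 0.0011). The interaction was -1.32 ± 0.24 (adjusted p = 0.0095). Gbp7 (-0.94 ± 0.18, adjusted p = 0.012) and Gbp4 (-1.38 ± 0.29, adjusted p = 0.020) were the others, and Gbp4 was lost without any of several single libraries (adjusted p 0.0070 to 0.072) and without untreated replicates 2 and 3 (-0.98, adjusted p = 0.16). Members of this family share sequence, so reads could be split between them and single values are uncertain.

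Irg1, which makes itaconate, had 241, 145 and 112 CPM with both cytokines, 748, 336 and 433 CPM with IFN-γ, 6.30, 5.26 and 2.80 CPM with IL-4 and 12.4, 4.78 and 3.39 CPM in untreated cells. IL-4 lowered its induction in each replicate number (difference from IFN-γ alone -1.59, limma adjusted p = 0.00017), with an interaction of -1.27 ± 0.27 (adjusted p = 0.020; 0.0085 to 0.056 over fits without 1 library). Irg1 was not called by edgeR (-1.19, adjusted p = 0.057) or without untreated replicates 2 and 3 (-0.87, limma adjusted p = 0.19). Nos2, which makes nitric oxide, averaged 0.864 CPM with both cytokines, 2.79 CPM with IFN-γ, 0.112 CPM with IL-4 and 0.0361 CPM in untreated cells (-1.11 ± 0.19, limma adjusted p = 0.0062). Tnf had 19.7, 7.21 and 11.7 CPM with both cytokines, 111, 26.7 and 61.4 CPM with IFN-γ, 1.66, 1.34 and 1.53 CPM with IL-4 and 14.6, 8.48 and 7.95 CPM in untreated cells. IL-4 lowered Tnf by about the same factor with and without IFN-γ (-2.17 and -2.13), and the interaction was -0.03 ± 0.37 (limma adjusted p = 0.98). Of 24 tested inflammatory genes 2 were called higher and 3 lower (8.33% and 12.5%).

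No gene of 31 classically induced by type I interferon was called by limma, with 0 at an unadjusted p under 0.05 and 0 by edgeR or DESeq2 (median 0.15). No MHC class I or antigen processing gene of 19 was called by limma (2 at an unadjusted p under 0.05; 0 by edgeR and DESeq2), and none of 8 MHC class II genes (1 at an unadjusted p under 0.05; 0 by edgeR and DESeq2). B2m, the light chain of MHC class I, averaged 2509.9 CPM with both cytokines, 2619.7 CPM with IFN-γ, 1915 CPM with IL-4 and 2008 CPM in untreated cells (0.01 ± 0.14, limma adjusted p = 0.99). The list of Myc, its dimerization network and ribosome biogenesis genes had 0 of 30 called by limma, with a median of -0.20. Of these, 12 had an unadjusted p under 0.05, and 0 were called by edgeR and 3 lower by DESeq2. Over all genes, limma gave 2019 of 11380 an unadjusted p under 0.05, a smaller share than in this list and a larger one than in the 3 lists before it. Myc itself, raised by IL-4 with and without IFN-γ, had an interaction of 0.10 ± 0.20 (limma adjusted p = 0.85).

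**Figure D4:**
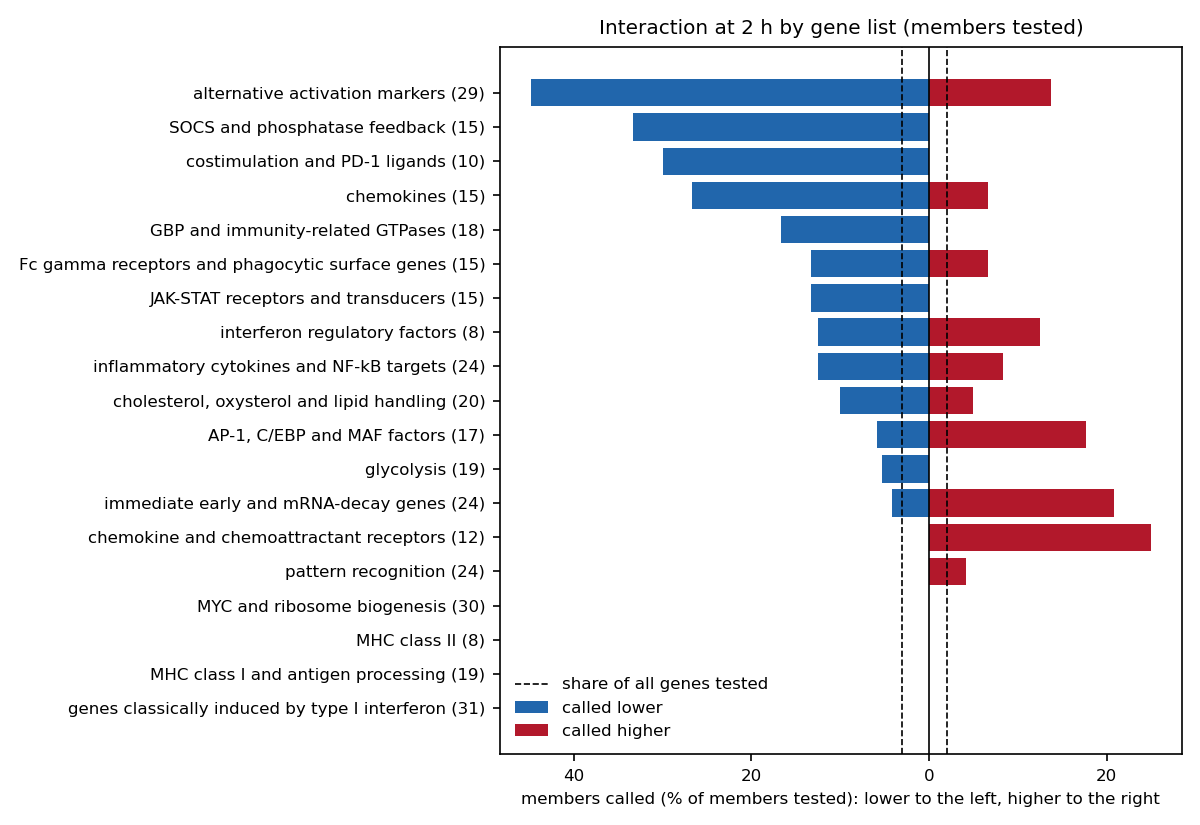
Share of the tested members of 19 gene lists called for the interaction at 2 h, lower to the left and higher to the right, in percent of the members tested (their number after each name). Dashed lines mark the shares over all genes, 3.02% lower and 2.05% higher. Alternative activation markers reach 44.8% lower, chemoattractant receptors 25% higher, and 4 lists have no called member.

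Some further lists are set here beside all genes, of which 2.05% were called higher and 3.02% lower. Of 17 AP-1, C/EBP and MAF factors 3 were called higher (17.6%; Atf3, Cebpa and Fos) and Nfil3 lower. Of 15 Fc gamma receptor and phagocytic surface genes 2 were called lower (Fcgr2b, the inhibitory Fc receptor, -1.08 ± 0.21, and Fcgr3, -0.49) and Cd163 higher (0.65 ± 0.13). Fcgr2b was not called without untreated replicates 2 and 3 (-0.72, limma adjusted p = 0.135), nor was Cd163 (0.58, adjusted p = 0.13). Slc2a1, the glucose transporter GLUT1, was the 1 called of 19 glycolysis genes (-0.58 ± 0.08; as deposited -0.98, limma adjusted p = 0.13), and Tlr13 the 1 called of 24 pattern recognition genes.

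To sort genes by cytokine without the libraries of the 2 h interaction, IFN-γ was set against IL-4 at 4 h. Of 649 genes at least 1 log2 unit higher with IL-4 there, 15.9% had a lower and 4.93% a higher interaction at 2 h. Of 1195 genes at least 1 unit higher with IFN-γ, 6.44% had a lower and 4.10% a higher one. Among the other 9536 genes the shares were 1.72% and 1.59%. With a difference of at least 2 log2 units, the shares called lower were 30.9% of 139 genes on the IL-4 side and 8.94% of 425 on the IFN-γ side. The same replicate numbers recur at both times, so these 4 h libraries are separate from those of 2 h but may not be unrelated to them. Resemblance by replicate number was checked only among the untreated and 2 h libraries.

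Most genes with a positive interaction were lowered by each cytokine alone. Lhfpl2, a tetraspan membrane protein gene, had 41.8, 52.4 and 40.1 CPM with both cytokines, 64.4, 63.9 and 45.8 CPM with IFN-γ, 75.4, 76.3 and 65.3 CPM with IL-4 and 379, 319 and 309 CPM in untreated cells. All treated libraries lay far below the untreated ones, and the combination was lower than either cytokine alone by less than 1 log2 unit (-0.36 against IFN-γ, -0.69 against IL-4). Its interaction was 1.84 ± 0.14 (limma adjusted p = 3.8e-05), and multiplying the decreases of CPM + 1 would have given 11.7 CPM.

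Thbs1, for the matrix protein thrombospondin-1, averaged 52.8 ± 17.1 CPM with both cytokines, 88.4 ± 34.6 CPM with IFN-γ, 49.0 ± 9.35 CPM with IL-4 and 264 ± 81.5 CPM in untreated cells (1.67 ± 0.20, limma adjusted p = 0.00071). The fractalkine receptor Cx3cr1 averaged 10.9 ± 1.08 CPM with both cytokines, 11.1 ± 2.44 CPM with IFN-γ, 10.4 ± 3.65 CPM with IL-4 and 34.3 ± 16.3 CPM in untreated cells (1.58 ± 0.31, limma adjusted p = 0.012). The 3 treated groups of Cx3cr1 overlapped. C5ar1, the C5a receptor (1.01 ± 0.14), and the oxysterol receptor Gpr183 (1.04 ± 0.18) were the other called members of 12 chemoattractant receptors (3 higher, 25%; 0 lower), and the list median was 0.60. On CPM as deposited C5ar1 (0.60, limma adjusted p = 0.46) and Gpr183 (0.64, adjusted p = 0.46) were not called, and the list median was 0.60 above that of all genes. Tlr13, a receptor for bacterial ribosomal RNA, followed the same shape (135, 190.1, 200.4 and 499.9 CPM on average with both cytokines, IFN-γ, IL-4 and in untreated cells; 0.82 ± 0.15, limma adjusted p = 0.0077; as deposited 0.41, adjusted p = 0.46).

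Some regulators of transcription and signalling were lower with IFN-γ alone than with both cytokines. Sik1, a salt-inducible kinase, had the highest interaction, with 14.3, 11.2 and 13.5 CPM with both cytokines, 6.77, 3.18 and 3.64 CPM with IFN-γ, 11.3, 7.72 and 7.52 CPM with IL-4 and 27.5, 10.4 and 17.8 CPM in untreated cells. Both cytokines together left more Sik1 than either alone (1.39 and 0.52 log2 units above IFN-γ and IL-4), and the interaction was 2.301 ± 0.23 (limma adjusted p = 0.00029). Cpeb2, an RNA-binding regulator of translation, had 152, 76.9 and 127 CPM with both cytokines, 14.3, 11.9 and 11.8 CPM with IFN-γ, 134, 56.9 and 103 CPM with IL-4 and 51.6, 40.5 and 47.4 CPM in untreated cells. IFN-γ alone lowered Cpeb2 below untreated cells, while combination and IL-4 libraries overlapped (2.101 ± 0.23, limma adjusted p = 0.00049). Cebpa, a factor of myeloid differentiation, averaged 60.6 ± 19.6 CPM with both cytokines, 20.6 ± 9.23 CPM with IFN-γ, 62.4 ± 29.4 CPM with IL-4 and 69.3 ± 39.1 CPM in untreated cells (1.69 ± 0.21, limma adjusted p = 0.0012). Dusp6, a phosphatase of ERK kinases (1.65 ± 0.19), was also higher with both cytokines than with IFN-γ alone (0.67, limma adjusted p = 0.0052). Rnd3, a small GTPase (1.56 ± 0.24), Nol4l (1.54 ± 0.14) and Melk, a mitotic kinase (2.03 ± 0.43), complete the 12 highest with other patterns. Rnd3 averaged 47.8 CPM with both cytokines, 41.4 CPM with IFN-γ, 5.51 CPM with IL-4 and 15.4 CPM in untreated cells, and Nol4l 2.99, 5.15, 5.99 and 29.99 CPM in the same order. For Melk the adjusted p ran from 0.0057 to 0.072 over fits without 1 library. Melk was not called by edgeR (2.31, adjusted p = 0.053) or without untreated replicates 2 and 3 (1.58, limma adjusted p = 0.14).

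Another group was lowest with IL-4 alone. Btg1, an antiproliferative regulator of mRNA decay, averaged 254 CPM with both cytokines, 303 CPM with IFN-γ, 63.8 CPM with IL-4 and 165 CPM in untreated cells (1.10 ± 0.15, limma adjusted p = 0.0018). Klf6 (376, 441, 136 and 301 CPM in the same order; 0.91 ± 0.08, limma adjusted p = 0.00010) and Tnfaip2 (494, 618, 166 and 377 CPM; 0.86 ± 0.09, limma adjusted p = 0.00029) had the same order of groups. None of the 3 was called on CPM as deposited (0.69, 0.50 and 0.45, limma adjusted p = 0.46 each). Of 24 immediate early and mRNA-decay genes tested 5 were called higher (20.8%; Btg1, Dusp1, Dusp6, Klf6, Klf10) and Klf4 lower, with a median of -0.04. Fos and Dusp1 were lowered by each cytokine (Dusp1 averaged 0.327 CPM with both cytokines, 1.28 CPM with IFN-γ, 1.17 CPM with IL-4 and 7.81 CPM in untreated cells). For Dusp1 the call (1.27 ± 0.21, limma adjusted p = 0.0053) was not shared by edgeR (0.89, adjusted p = 0.21).

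In 25 of the 233 genes called higher (166 of all genes, 1.46%) the 3 combination libraries lay above the other 9. In nearly as many, 22 of the 233 (9.44%, against 1.5% of all genes), among them Nol4l and Dusp1, they lay below the other 9, and in 17 of the 344 genes called lower (4.94%) they lay above. Atf3, a stress-inducible repressor, had 608, 442 and 456 CPM with both cytokines, 330.4, 197 and 213 CPM with IFN-γ, 163, 98.8 and 81.2 CPM with IL-4 and 274, 118 and 124 CPM in untreated cells. IFN-γ raised it (0.59) and IL-4 lowered it (-0.54), yet IL-4 added to IFN-γ raised it further (1.04, limma adjusted p = 0.00022), and the interaction was 1.58 ± 0.18 (adjusted p = 0.00066). Lbh, a transcriptional regulator first described in limb bud and heart, had 105, 47.3 and 78.0 CPM with both cytokines, 29.7, 17.7 and 26.2 CPM with IFN-γ, 30.4, 21.2 and 29.9 CPM with IL-4 and 28.2, 28.2 and 25.01 CPM in untreated cells. Neither cytokine alone passed the test against untreated cells (IFN-γ -0.17, limma adjusted p = 0.44; IL-4 -0.01, adjusted p = 0.96), and the interaction was 1.58 ± 0.23 (adjusted p = 0.0025).

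Ccl24, the eosinophil chemoattractant eotaxin-2 and a marker of alternative activation, had 107, 52.4 and 90.7 CPM with both cytokines, 3.69, 0.949 and 3.24 CPM with IFN-γ, 34.7, 14.5 and 25.4 CPM with IL-4 and 3.38, 0.895 and 1.47 CPM in untreated cells. IFN-γ added to IL-4 raised it by 1.72 log2 units (limma adjusted p = 1.2e-06), and the interaction was 1.42 ± 0.18 (adjusted p = 0.0010). Fn1, fibronectin, averaged 41.3 ± 15.3 CPM with both cytokines, 12.1 ± 7.29 CPM with IFN-γ, 13.8 ± 5.14 CPM with IL-4 and 9.54 ± 3.52 CPM in untreated cells (1.28 ± 0.19, limma adjusted p = 0.0026). Zfp398, a zinc finger gene, had 53.2, 49.8 and 49.97 CPM with both cytokines, 9.22, 8.86 and 9.002 CPM with IFN-γ, 15.2, 16.9 and 12.3 CPM with IL-4 and 4.90, 4.84 and 5.49 CPM in untreated cells (1.00 ± 0.14, limma adjusted p = 0.0018). The 4 groups of Zfp398 did not overlap. As deposited, Fn1 (0.94, limma adjusted p = 0.21) and Zfp398 (0.66, adjusted p = 0.46) were not called. Ccl24, Fn1 and Zfp398 were chosen after their values were seen, as were Ccl12, Slc7a2, Tmem26, Tfec, Btg1, Klf6, Tnfaip2, Dusp1, Fos, C5ar1, Gbp7 and members named above to complete a list's count.

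In 5 of the 344 genes called lower (1.45%; Relt, Lrp12, Rnf144b, Zadh2 and Slc19a2) the 3 combination libraries lay below the other 9, as in 1.5% of all genes. Lrp12, an LDL receptor family gene, had 127, 155 and 114 CPM with both cytokines, 235, 229 and 225 CPM with IFN-γ, 178, 259 and 173 CPM with IL-4 and 159, 201 and 173 CPM in untreated cells (-0.99 ± 0.14, limma adjusted p = 0.0022). Rnf144b, an E3 ubiquitin ligase gene, averaged 21.9 CPM with both cytokines, 40.3 CPM with IFN-γ, 35.3 CPM with IL-4 and 36.0 CPM in untreated cells (-0.83 ± 0.09, limma adjusted p = 0.00040). These too were named after their values were seen.

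Beyond the lists, Fchsd2, which acts in membrane traffic, was raised by either cytokine, with 532, 238 and 521 CPM with both cytokines, 462, 169.8 and 392 CPM with IFN-γ, 463, 213 and 407 CPM with IL-4 and 82.4, 27.1 and 59.9 CPM in untreated cells (-2.35 ± 0.12, limma adjusted p = 3.3e-06). It fell short of the sum of the single increments in every replicate number. The serine protease inhibitor gene Serpina3g (chromosome 12, 104236245 to 104241939, plus strand) had 895, 709.7 and 753 CPM with both cytokines, 495, 286 and 373 CPM with IFN-γ, 45.1, 21.2 and 21.7 CPM with IL-4 and 3.30, 2.98 and 1.49 CPM in untreated cells. The combination exceeded the sum by 358, 406 and 359 CPM, while the interaction was -1.97 ± 0.26 (limma adjusted p = 0.0014). Reads of Serpina3g may be shared with near-identical neighbours, and its values are uncertain for that reason. The other genes called lower that exceeded the sum in 3 of 3 replicate numbers were Serpina3f, Ahr, the ligand-activated aryl hydrocarbon receptor (-1.18 ± 0.18), Hbegf, a growth factor of the EGF family (-0.90), Traf5 (-0.63) and 1110059E24Rik (-0.76), named after their values were seen. Ahr averaged 143 CPM with both cytokines, 34.7 CPM with IFN-γ, 85.8 CPM with IL-4 and 8.38 CPM in untreated cells.

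Lipid genes held opposite interactions. Ch25h, which makes 25-hydroxycholesterol, had 55.4, 122.7 and 57.1 CPM with both cytokines, 62.5, 166 and 103 CPM with IFN-γ, 16.8, 45.1 and 14.2 CPM with IL-4 and 1.055, 3.34 and 1.70 CPM in untreated cells. The combination was below IFN-γ alone in every replicate number, but not past the test (-0.48, limma adjusted p = 0.077), and the interaction was -3.49 ± 0.23 (adjusted p = 1.6e-05). The cholesterol exporters differed in sign, with Abcg1 lower (-1.05 ± 0.11) and Abca1 higher (0.76 ± 0.12; as deposited 0.35, limma adjusted p = 0.48), and 3 of 20 members of the list were called.

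The palindromes and repeats searched for at the start sites are given as shares, with no test. A RefSeq promoter was matched for 9185 of the 11380 genes, and both strands were searched. The palindrome TTCNNNGAA was in 6.70% of promoters of genes called higher, 9.84% of those called lower and 8.42% of all. For TTC and GAA 4 bases apart, the spacing STAT6 prefers, the shares were 5.59%, 8.27% and 6.70% in the same order. The IRF-type repeat of GAAA and GAAA 2 bases apart was in 2.23%, 3.94% and 4.07%, the AP-1 type TGACTCA in 6.70%, 4.72% and 4.47%, and the NF-κB type GGGA and TTCC 2 bases apart in 0.559%, 1.97% and 1.76%. A match is a description of the letters in a 300-base window and not of binding.

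At 4 h, 430 genes had a higher (3.78%) and 564 a lower interaction (4.96%), against the same untreated libraries. Socs1 was at -4.88 ± 0.20 at 2 h and -3.73 ± 0.27 at 4 h, Cish at -3.41 ± 0.16 and -2.95 ± 0.35, and Rasgrp1 at -3.21 ± 0.21 and -3.57 ± 0.43. Sik1 was at 2.301 ± 0.23 at 2 h and 2.27 ± 0.30 at 4 h, and Lhfpl2 at 1.84 ± 0.14 and 2.95 ± 0.44. In the test of 4 h minus 2 h, in which untreated libraries cancel, 61 genes were higher (0.536%) and 81 lower (0.712%), and none of these 5 was among them (limma adjusted p = 0.12 for Socs1, 0.64 for Cish, 0.82 for Rasgrp1, 0.98 for Sik1 and 0.33 for Lhfpl2). These counts swing with the replicates: 228 higher and 459 lower without replicate 2, and 1 of each without replicate 3. On the log2(CPM + 1) scale, 2 named genes differed most between times. Retnla was at -1.24 ± 0.12 at 2 h and -4.48 ± 0.16 at 4 h (difference -3.24, limma adjusted p = 5.4e-08). Nos2 was at -1.11 ± 0.19 and -4.12 ± 0.35 (difference -3.01, limma adjusted p = 0.0011). At 2 h Retnla averaged at most 1.49 CPM and Nos2 at most 2.79 CPM in any group. Adding 1 CPM then limits how far below 0 the value can go. Alternative fits at 2 h reached -4.80 for Retnla (edgeR) and -3.56 for Nos2. These differences therefore depend on the level of the genes as well as on the interaction.

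**Figure D5:**
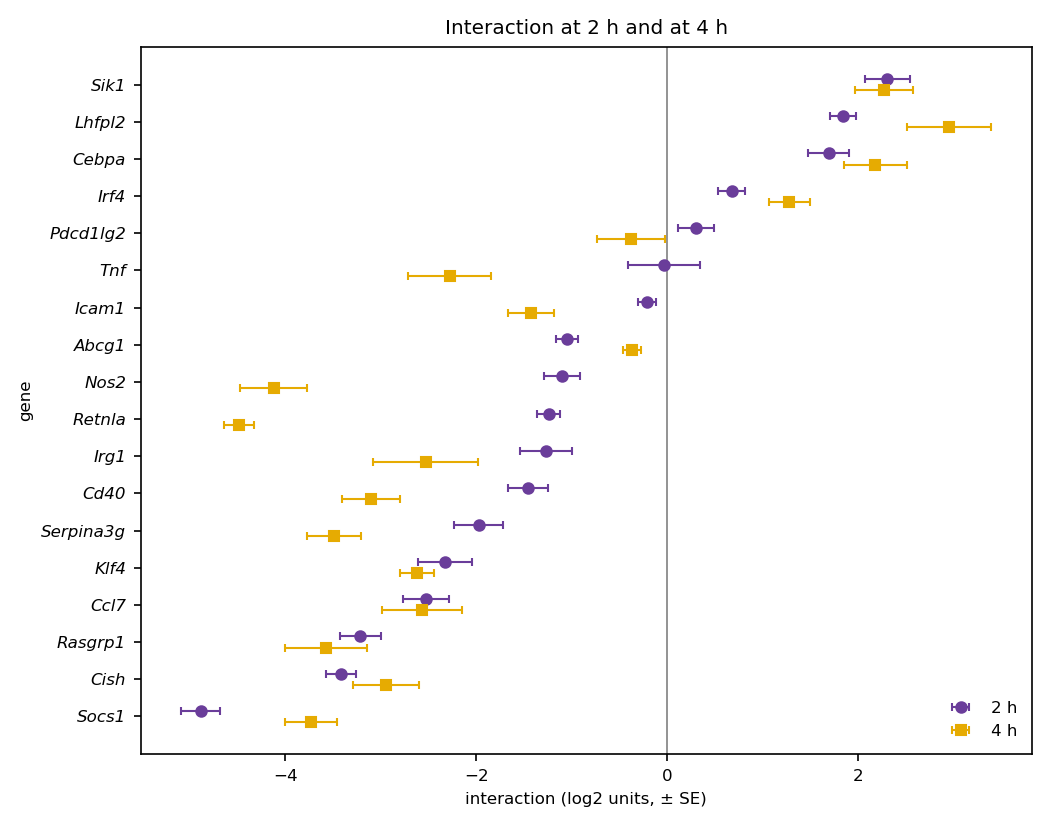
Interaction of 18 genes at 2 h (purple circles) and at 4 h (yellow squares), in log2 units ± SE on the horizontal axis. Both times use the same untreated libraries. Sik1, Klf4, Ccl7 and Rasgrp1 have similar values at both times, whereas Nos2, Retnla and Tnf are further below 0 at 4 h. Nos2 and Retnla averaged at most 2.79 CPM in any group at 2 h, which limits their 2 h values.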

How the data were processed

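Poly(A) RNA-seq values of 12 libraries (3 per group) were used; the table's other 9 libraries (4 h) set rescaling and 4 h values, and 24 short hairpin RNA libraries were not analysed here. The authors deposited CPM; per the submitters' processing notes, reads were aligned with TopHat2 2.1.0 and counted with HTSeq, with edgeR also named, on mm10 (GRCm38). Counting of strand and shared reads is not given in the sources used here. From the deposited CPM, 1 read per library was taken as its smallest value above 0, and 100% of values were whole reads within 0.01 read. Totals of 28920801 to 80028327 reads limit precision only for genes of a few CPM, and read counts carry counting error only.

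CPM were divided by median-ratio factors over the 21 libraries (0.579 for untreated replicate 2 to 1.22), and log2(CPM + 1) was fitted with limma 3.58.1 (R 4.3.3) with 1 mean per group and the replicate number as a block (6 residual degrees of freedom, empirical Bayes with trend). Fold changes on this scale understate those of low genes. Genes reaching 1 CPM in 3 or more libraries entered, p-values were adjusted over all 11380 genes (Benjamini-Hochberg), and an adjusted p under 0.05 was called. The rule of the comparison pairs libraries by replicate number, and the data bear the numbers out: with group means removed, 18 same-number pairs correlated at 0.580 to 0.951 and 36 other pairs at 0.369 or less. No 2 libraries of the same group at 2 h or untreated were alike within counting noise. Whether replicates are separate animals or cultures is not stated, so p-values measure only how much these samples vary, possibly for technical reasons. Values after ± are SE for log2 values and SD for CPM (n = 3).

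Named genes were 21 fixed ones, the 12 largest interactions per direction, and up to 2 called and 1 uncalled member per list. Those 12 had to be called, of the same sign in 3 of 3, at least 5 CPM in a group and no predicted genes. Another 22 were added after their values were seen. Genes named only to complete a count, such as Cxcl11, Cd86, Relt and Hbegf, come on top of these. Their single values were not followed through the alternatives. The comparison, its gene lists and fixed genes were chosen with earlier results of these data known. Alternatives were edgeR 4.0.16 and DESeq2 1.42.0 on recovered reads (543 and 747 genes called), TMM factors, unrescaled CPM, pseudocounts of 0.25 and 5, other filters, no block, a fit of all 21 libraries and left-out replicates or libraries. The script was tested on simulated data. Gene positions are from GENCODE vM21 and promoters from RefSeq, matched by symbol (66 of 90 named genes). Irg1 is listed there as Acod1. Some genes measured in the table are not reported here.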

Additional observations from a re-analysis of the deposited data

Results flagged for a closer look

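The interaction differed between 4 h and 2 h for 11 of the named genes, by limma's test of the difference over the 18 treated libraries. Among all genes 61 were higher (0.536%) and 81 lower (0.712%) in that test. Many named genes were chosen by their 2 h interaction or after their values were seen, and the difference uses the same 2 h libraries. That choice favours a shift away from the 2 h value, so the count is a description. All values are log2 units, and the difference is the interaction at 4 h minus that at 2 h. Nos2 (-3.01) and Retnla (-3.24) were further below 0 at 4 h. At that time the combination libraries held 687 reads of Nos2, IFN-γ libraries 11425 and IL-4 libraries 30. For Retnla the reads were 139, 2 and 7193 in the same order. At 2 h both genes averaged at most 2.79 CPM in any group, where adding 1 CPM limits how far below 0 the value can go. Tnf had an interaction of -0.03 ± 0.37 at 2 h and -2.28 ± 0.43 at 4 h (difference -2.24, adjusted p = 0.049). The adhesion molecule gene Icam1 was at -0.21 ± 0.10 at 2 h and -1.43 ± 0.24 at 4 h (-1.22, adjusted p = 0.030). Cd40 (-1.65, adjusted p = 0.012) and Serpina3g (-1.51, adjusted p = 0.015) moved further below 0. Nfkbiz, a regulator of NF-κB target genes, was at 1.13 ± 0.20 at 2 h and -1.23 ± 0.38 at 4 h (-2.35, adjusted p = 0.020); its call at 2 h was lost on CPM as deposited (0.78, adjusted p = 0.40). C5ar1 was at 1.01 ± 0.14 at 2 h and -0.44 ± 0.28 at 4 h (-1.45, adjusted p = 0.028). Dusp1 was at 1.27 ± 0.21 at 2 h and -0.58 ± 0.31 at 4 h (-1.85, adjusted p = 0.013), and Fos at 1.43 ± 0.19 and 0.26 ± 0.28 (-1.17, adjusted p = 0.049). Abcg1 was the 1 gene of these with a higher value at 4 h, with -1.05 ± 0.11 at 2 h and -0.37 ± 0.09 at 4 h (0.68, adjusted p = 0.037).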

How the results depend on the processing

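Against 233 higher and 344 lower calls at 2 h, counts were 10 and 22 without the replicate block, 34 and 206 on CPM as deposited (median of all genes -0.39) and 125 and 217 with all 21 libraries in the fit. Without 1 replicate number, higher calls ran from 50 to 203 and lower calls from 87 to 277, lowest without replicate 3; without 1 library, higher calls ran from 148 (IL-4 replicate 1; 151 without IL-4 replicate 3) to 255 and lower calls from 244 to 370. Without untreated replicates 2 and 3, added after seeing the data, 420 genes were called, 343 of them shared with the 577. The 577 genes kept their sign with TMM factors; of them, 32 were also called without the block, 545 with TMM, 495 by edgeR and 527 by DESeq2. Of the 90 named genes 51 were not called without the block and 15 not on CPM as deposited. Arg1 reversed in count models (edgeR 0.28, DESeq2 0.36), as did Pdcd1lg2 (edgeR -1.12, DESeq2 -1.13). Calls of 4 h minus 2 h (61 higher, 81 lower) were 1 and 2 without the block and ran from 1 to 228 and from 1 to 459 without 1 replicate number. With a class difference of 2 log2 units, 30.9% of the IL-4 side was called lower. The causes were not tested.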
